A study of Caenorhabditis elegans with 4 samples.

Results

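The peaks described here are the MDL-1::GFP binding regions on the arms of chromosome V of the nematode Caenorhabditis elegans. A peak was counted as a member when its midpoint lay before base 5897000 (left arm) or after base 16550000 (right arm) of chromosome V in WormBase WS180, the build of the peak list. The boundaries come from the pattern of meiotic recombination, and the rule uses no measured binding value. This part of the list was nevertheless chosen with earlier results of these data known. In all, 747 of 9533 peaks met the rule, which is 7.84% of the list and 40.5% of the 1846 peaks on V. The left arm held 457 of them and the right arm 290. The other 1099 peaks of V lay in its centre.

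The data are from chromatin immunoprecipitation followed by sequencing (ChIP-seq). The libraries were 2 from ChIP with a polyclonal goat antibody to GFP and 2 from input DNA, replicates 1 and 2 of each, made from fed L1 hermaphrodite larvae grown at 20 °C. All 4 libraries, ChIP and input alike, are from strain OP106, which carries the ed3 allele of unc-119 on chromosome III and the transgene wgIs106. The transgene, brought in by biolistic transformation, holds mdl-1 fused to TY1, EGFP and FLAG together with unc-119(+), and its product is described in the labels as following the expression pattern of mdl-1. Cell types were not separated, and no library from worms without the tag was analysed here. A single combined peak list was analysed, so no value below has a replicate error, the sequencing depth is unknown, and the exact intervals cover counting error only.

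MDL-1 is the worm relative of the vertebrate Mad proteins, basic helix-loop-helix leucine zipper factors that bind E-box DNA as dimers with a Max-like partner, MXL-1 in the worm, and are known mostly as repressors. Worm autosomes have a central region with little meiotic crossing-over, rich in conserved and broadly expressed genes, and arms on both sides in which most crossing-over takes place. The arms hold more repeats and more chromatin marked by methylation of histone H3 lysine 9 and attached to the nuclear lamina. Chromosome V is known for large, recently expanded gene families, among them many chemoreceptor genes. The peaks could not be assigned to genes, since no annotation of their build was used here, and positions are therefore given without gene names or sequence.

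Peaks were sparser on the arms of V than in its centre. The arms held 72.8 peaks per Mb (67.7 to 78.2, an exact Poisson interval at 95% as for all densities) over 10.3 Mb, and the centre held 103 per Mb (97.2 to 109) over 10.7 Mb. The density on the arms was 0.71 times that in the centre (95% interval 0.59 to 0.84; quasi-Poisson regression of peaks per 100 kb window, n = 103 and 107 windows, adjusted p = 0.00041 over 4 comparisons). This regression widens the error for the clustering of peaks, whose variance per window was estimated at 3.44 times its mean. It takes windows as independent, so its intervals and p-values, here and below, do not cover blocks longer than a window. In full windows of 500 kb the variance was 3.84 times the mean on the left arm of V and 6.88 times on the right. On the arms of I to IV it was between 0.27 times (right arm of II) and 5.48 times (right arm of I). The same ratio of arms to centre was 0.69 on II, 0.80 on I, 0.80 on III and 0.84 on IV. Chromosome V thus lay close to II and below the other autosomes, and whether the chromosomes differ in it was not tested.

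Both arms of V also lay low among the 10 autosomal arms. The left arm, with 77.6 peaks per Mb (70.6 to 85), ranked 8 from the highest, and the right arm, with 66.4 (59.0 to 74.5), ranked 10. The 8 arms of chromosomes I to IV had a mean of 96.6 ± 18.1 peaks per Mb (SD over arms, n = 8), between 69.5 on the right arm of IV and 120 on the right arm of III. The left arm of V was at 0.82 times the pooled density of these arms (95% interval 0.70 to 0.96; quasi-Poisson regression, n = 59 and 320 windows, adjusted p = 0.015). The right arm was at 0.70 times (0.58 to 0.85; the same regression, n = 44 and 320 windows, adjusted p = 0.00076). Without chromosome III the ratio of the left arm was 0.86 and its adjusted p = 0.10 (quasi-Poisson regression, n = 59 windows on V). The call for the left arm was also lost with the V boundaries moved inward by 500 kb and with the outer 500 kb of the arms left out, at ratios of 0.89 and 0.84. The regression weighs windows, not chromosomes, and the right arm of IV lay within the Poisson interval of the right arm of V.

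**Figure D1:**
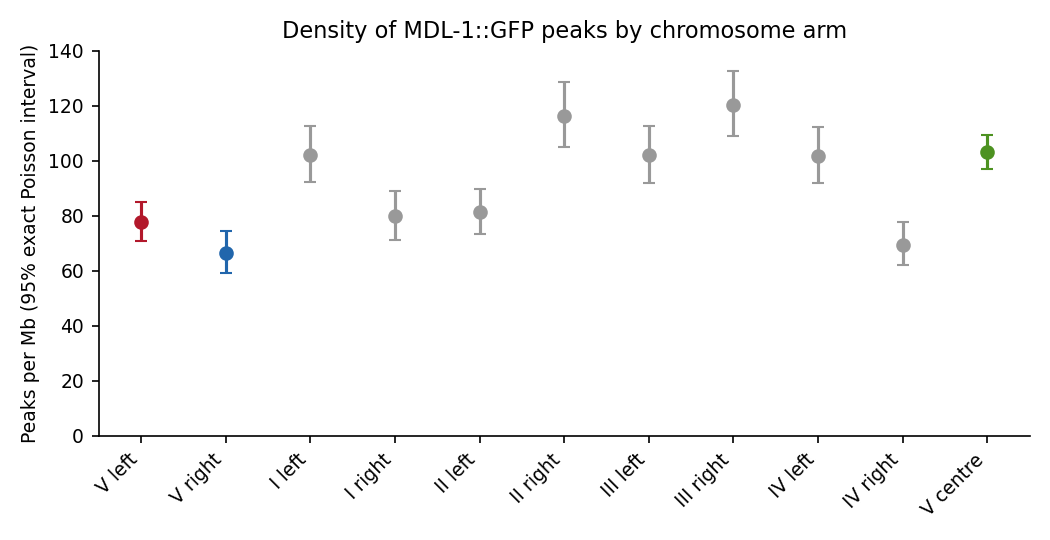
Peaks per Mb (vertical axis) on the left and right arm of V, the 8 arms of I to IV and the centre of V; bars are 95% exact Poisson intervals. The V arms stand at 77.6 and 66.4 peaks per Mb, beside 69.5 to 120 on the other arms and 103 in the centre of V.

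The left and right arms of V did not differ beyond the variation along the arms. Density on the left arm was 1.17 times that on the right (95% interval 0.88 to 1.55; quasi-Poisson regression, n = 59 and 44 windows, adjusted p = 0.28). On other autosomes the ratio of left to right was 1.28 on I and 1.46 on IV, but 0.70 on II and 0.85 on III, so no common direction was seen. A test that treats every peak as independent gave an adjusted p = 0.038 for V (exact conditional binomial test).

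The right arm was sparsest in its inner part. In windows of 500 kb counted outward from the border with the centre, the right arm held 21, 9, 22 and 18 peaks in the first 2 Mb, and then 49, 41, 36 and 44 peaks. The windows of the left arm at the same distances held 55, 38, 51 and 25 peaks, and then 49, 22, 21 and 45. On the 8 arms of I to IV the lowest counts in the first 4 windows were 24, 31, 25 and 33. The right arm of V was therefore the lowest of the 10 arms in each of these 4 windows. Farther out it lay inside the range of the others.

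Over these inner 2 Mb the right arm had 35.0 peaks per Mb (27.3 to 44.2), the left arm 84.5 (72.2 to 98.2), and the arms of I to IV between 74.5 and 116.5. In its remaining 2.37 Mb the right arm had 93.0 peaks per Mb (81.1 to 106), the left arm 74.0 (65.7 to 83.1) in its remaining 3.89 Mb, and the other arms between 63.9 and 126. The density of the inner part was 0.38 times that of the outer part on the right arm of V. The same ratio was 1.14 on the left arm and between 0.88 and 1.22 on the other arms. The 2 Mb limit was set after the counts had been seen, so these values are a description. The stretch was chosen for its low counts, and leaving it out had to raise the ratio. With the inner 2 Mb of the right arm of V left out, its density was 0.98 times that of the arms of I to IV.

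**Figure D2:**
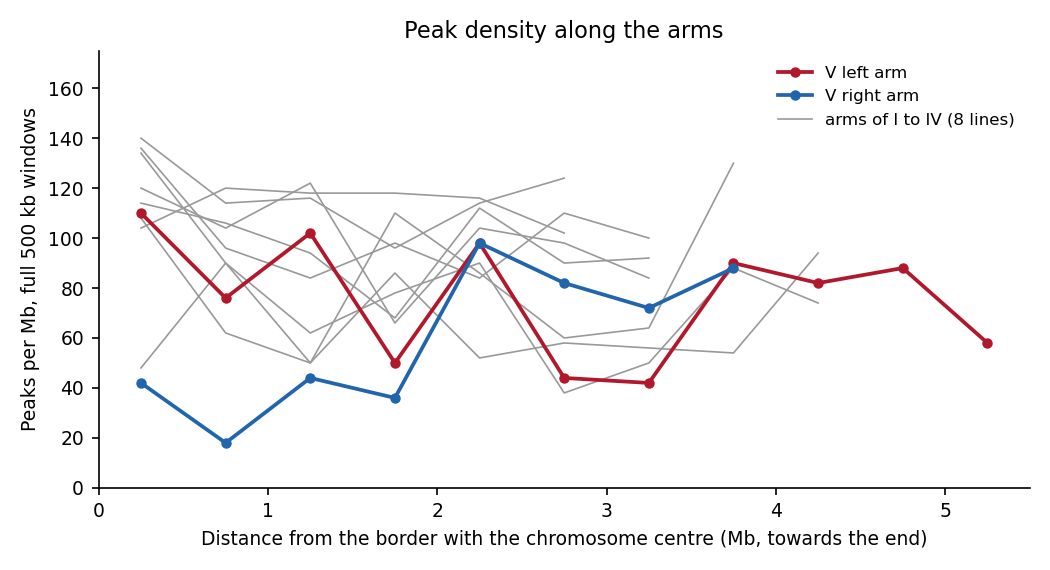
Peaks per Mb in full 500 kb windows (vertical axis) against the distance in Mb from the border with the chromosome centre, for the left arm (red) and right arm (blue) of V and the 8 arms of I to IV (grey). The right arm of V is the lowest line in the first 2 Mb, at 18 to 44 peaks per Mb, and lies among the others farther out.

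The left arm held both dense and sparse windows. Its densest full window, next to the centre from 5397001 to 5897000, held 55 peaks with a median strength of 6.28, where strength is -log10 of the q-value that the authors deposited for each peak. Its sparsest, from 2397001 to 2897000, held 21 peaks with a median strength of 3.55. On the right arm the densest full window, from 18550001 to 19050000, held 49 peaks, and the sparsest, from 17050001 to 17550000, held 9 peaks, none of them within 1 kb of another and the strongest at 6.00. Over full windows the counts averaged 38.2 ± 12.1 on the left arm (SD, n = 11 windows) and 30.0 ± 14.4 on the right (SD, n = 8 windows). Counts ran from 24 to 65 on the right arm of I and from 19 to 67 on the left arm of II. The spread on the left arm of V was thus not particular to it.

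Long stretches without a peak took up much of both arms. Stretches over 50 kb numbered 23 on the left arm and 18 on the right, which is 3.90 per Mb (2.48 to 5.86) and 4.12 per Mb (2.44 to 6.52). They numbered 79 on the arms of I to IV, or 2.51 per Mb (1.98 to 3.12), and 21 in the centre of V, or 1.97 per Mb (1.22 to 3.01). Together they covered 31.2% of the left arm, 40.2% of the right arm, 18.2% of the arms of I to IV and 15.6% of the centre of V. By number per Mb the left and right arms of V ranked 4 and 2 from the highest of the 10 arms. The right arm of IV, at 4.43 per Mb, lay above both, and the right arm of I, at 3.97, above the left arm of V. By share covered, the right arm of V was the highest of the 10 arms, with the right arm of IV next at 39.8%. Of the 22 stretches over 100 kb on autosomal arms, 5 lay on the left arm of V (0.85 per Mb), 6 on its right arm (1.37 per Mb) and 7 on the right arm of IV (1.55 per Mb). All 6 on the right arm lay in its inner 2 Mb, where 12 stretches over 50 kb summed to 1318 kb.

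The longest stretch without a peak on any autosomal arm ran over 280483 bp of the right arm, from 16966155 to 17246637, and began 416 kb from the centre. The peak before it was strong, at a strength of 32.1 and a width of 867 bp, and the peak after it weak, at 2.04 and 189 bp. The next 2 on this arm were 167144 bp long (17353135 to 17520278) and 140879 bp long (18346391 to 18487269). On the left arm the longest stretches measured 146240 bp (2340420 to 2486659), 137069 bp (4195199 to 4332267) and 129708 bp (2909850 to 3039557). Outside V, the longest stretch on an arm was 182736 bp, on the right arm of IV.

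**Figure D3:**
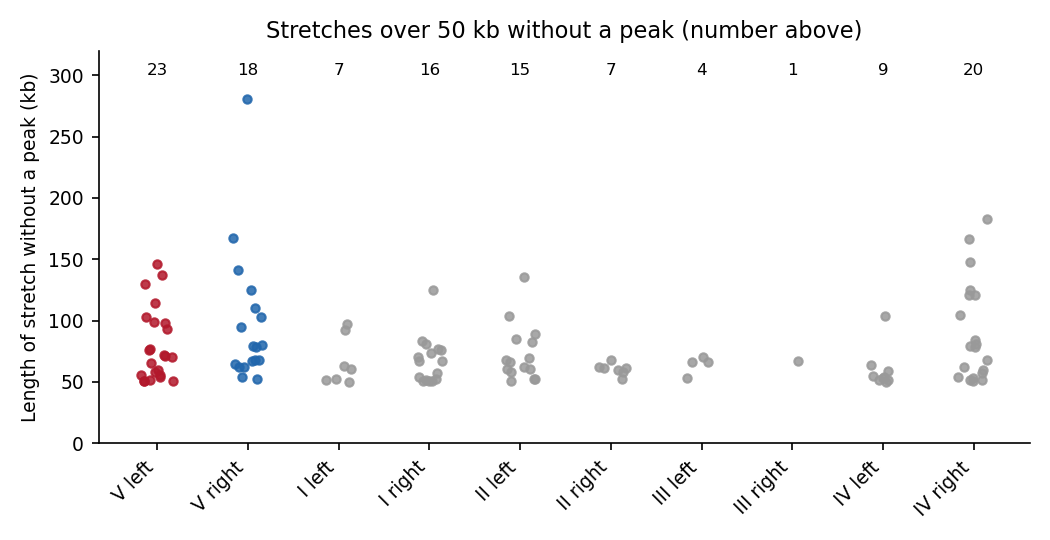
Length in kb (vertical axis) of each stretch over 50 kb without a peak, 1 point per stretch, with their number above each of the 10 autosomal arms; points are spread sideways for visibility. The 23 and 18 stretches of the V arms reach 146 and 280 kb.

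Neighbouring peaks were therefore spaced unevenly. The median gap between neighbours was 5239 bp on the left arm (95% binomial interval of the median 4235 to 5989), 5704 bp on the right (4364 to 7606), 4608 bp on the arms of I to IV (4228 to 5026) and 3838 bp in the centre of V (3234 to 4588). Among single arms of I to IV, the left arm of II had a longer median gap than either arm of V, at 5726.5 bp. The right arm of I, at 5554 bp, lay above the left arm of V. The mean gap was 2.41 times the median on the left arm of V and 2.60 times on its right arm. It was 2.23 times the median on the arms of I to IV and 2.43 times in the centre of V. By this ratio the left and right arms of V ranked 4 and 3 from the highest of the 10 arms, below the right arm of IV at 3.32. Uneven spacing was thus not particular to the arms of V. Gaps of at most 500 bp made up 7.66% on the left arm (35 of 457 gaps), 7.24% on the right arm (21 of 290 gaps), 7.75% on the arms of I to IV and 11.3% in the centre of V. The smallest gap in the whole list was 200 bp, so the list holds no closer neighbours as separate peaks. At the other end, 13 left-arm and 14 right-arm peaks had no neighbour within 20 kb. These solitary peaks had median strengths of 3.45 on the left arm and 4.0 on the right.

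Close neighbours were fewer on the arms of V than in its centre. A neighbour within 1 kb was found for 124 left-arm peaks, 27.1% (95% Clopper-Pearson interval 23.1 to 31.5), and for 86 right-arm peaks, 29.7% (24.5 to 35.3). The share was 31.4% on the arms of I to IV and 38.9% (36.0 to 41.9) in the centre of V. On each of the other autosomes the share was also higher in the centre than on either arm. It was 36.2% in the centre of I, 40.0% of II, 43.6% of III and 37.7% of IV. These shares were not adjusted for density, and they were not tested, since neighbours are counted in common. Joined at 1 kb, the peaks formed 53 groups on the left arm (38 of 2 peaks, 12 of 3 and 3 of 4) and 34 on the right (25 of 2 peaks, 3 of 3 and 6 of 4 or more). The largest had 4 peaks on the left arm and 5 on the right, against 12 in the centre of V, which holds more peaks. On single arms of I to IV the largest group had between 4 peaks (left arm of III) and 10 (left arm of II). On both arms of IV it had 5, so the V arms were not set apart in this.

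The leading groups differed in how strong their members were. In the left-arm group from 723864 to 731818, all 4 peaks were strong, with strengths of 129, 44.2, 25.9 and 114. The left-arm group from 4686716 to 4690306 had 1 strong member, with strengths of 30.8, 3.49, 2.10 and 5.14 along the chromosome. The third, from 3610660 to 3614774, had strengths of 23.7, 9.08, 2.59 and 5.64. On the right arm, the 5 peaks from 20772114 to 20777994 had strengths of 40.1, 119, 5.94, 4.16 and 9.75. The 5 peaks from 20410801 to 20415742 had strengths of 9.17, 10.4, 15.4, 81.0 and 10.3. The 5 from 19518643 to 19523093 had 2.43, 3.98, 2.18, 32.7 and 57.7.

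On the arms of V, as on those of I to IV, peaks with a near neighbour had higher medians of strength and width than the others. On the left arm the median strength was 5.14 with a neighbour within 1 kb (124 peaks; 95% binomial interval 3.98 to 7.11) and 4.33 without (333 peaks; 3.61 to 4.87), and on the right arm it was 5.10 (86 peaks; 4.17 to 6.88) and 3.55 (204 peaks; 3.17 to 4.33). The median widths were 283 and 260 bp on the left arm, and 302 and 208.5 bp on the right. The intervals overlapped for both measures on the left arm and for strength on the right. For width on the right arm they were separate, at 251 to 357 bp with a neighbour and 189 to 248 bp without. On the arms of I to IV the median strengths were 5.76 with a neighbour (937 peaks; 5.14 to 6.16) and 4.41 without (2047 peaks; 4.17 to 4.71). The median widths there were 298 bp (281 to 316) and 250 bp (240 to 261), so the pattern was not particular to V.

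Peaks of the right arm had the lowest median strength of the 10 arms, and those of the left arm lay among the others. The median strength was 4.36 on the left arm (95% binomial interval 3.91 to 5.13) and 4.05 on the right (3.49 to 4.77), against 4.78 on the arms of I to IV (4.57 to 5.0) and 4.98 in the centre of V (4.6 to 5.45). The left arm ranked 6 from the highest, its interval held the median of the arms of I to IV, and 3 of the 8 other arms lay lower. These 3 were the left arm of III at 4.11, the left arm of II at 4.17 and the right arm of IV at 4.20. All 3 medians lay inside the interval of the right arm of V, which was thus not set apart from them. Strengths above 10 were reached by 22.1% of left-arm peaks (18.4 to 26.2) and 19.3% of right-arm peaks (14.9 to 24.3), against 27.3% on the arms of I to IV (25.7 to 28.9) and 27.5% in the centre of V (24.9 to 30.2). At the weak end, strengths below 3 were found for 31.1% on the left arm, 33.8% on the right arm, 28.3% on the arms of I to IV and 26.8% in the centre of V.

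Right-arm peaks had the lower quartiles of width. The median width was 268 bp on the left arm (95% binomial interval 247 to 286) and 242.5 bp on the right (208 to 264), with lower quartiles of 176 and 130 bp and upper quartiles of 386 and 360 bp. The arms of I to IV had a median of 264 bp and the centre of V one of 290 bp. Peaks narrower than 200 bp made up 30.4% on the left arm (95% Clopper-Pearson interval 26.2 to 34.9) and 39.0% on the right (33.3 to 44.8), against 34% on the arms of I to IV and 24.7% in the centre of V. With the whole list divided by strength into 4 classes of equal size, right-arm peaks had a lower median width than left-arm peaks in each class. From the weakest class to the strongest, the arms of I to IV had medians of 124, 200, 308 and 449 bp. The left arm, at 149, 225.5, 329 and 498 bp, lay above them in each class. The right arm, at 109, 207, 311 and 391 bp, lay below them only in the weakest and the strongest class. In the weakest class the medians were 149 bp on the left arm (116 to 170) and 109 bp on the right (82 to 128). In the strongest class they were 498 bp on the left arm (458 to 601) and 391 bp on the right (374 to 542), with intervals that overlapped. At the wide end, 3.28% of left-arm peaks (15 peaks; 1.85 to 5.36) and 1.72% of right-arm peaks (5 peaks; 0.56 to 3.98) were wider than 1000 bp. Peaks covered 2.60% of the left arm and 1.88% of the right, the lowest of the 10 arms, against 2.88% of the arms of I to IV and 3.67% of the centre of V.

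**Figure D4:**
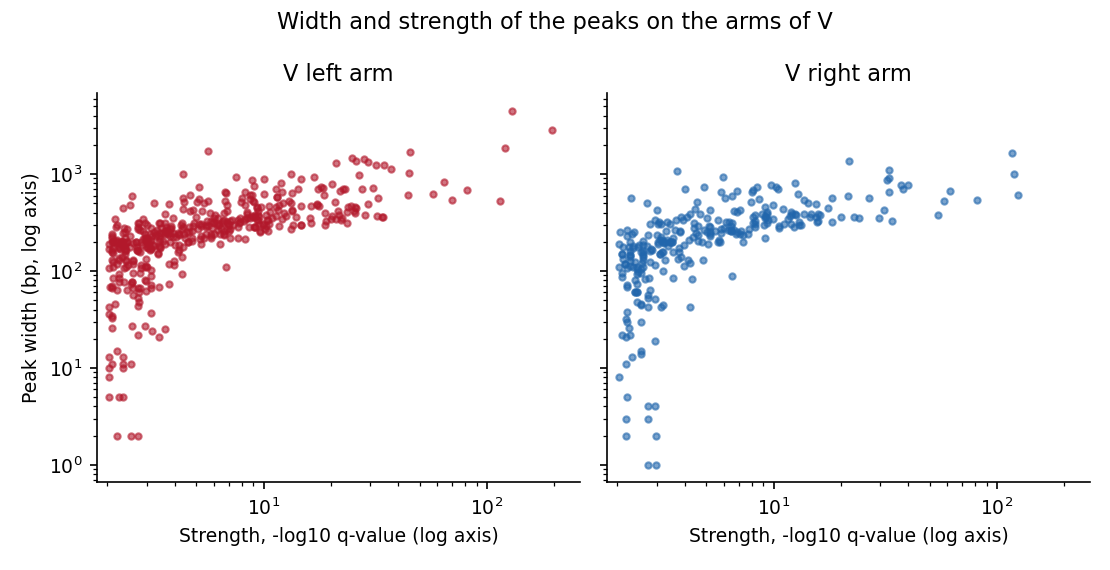
Width in bp against strength (-log10 of the deposited q-value), both on log axes, for each of the 457 left-arm and 290 right-arm peaks. Width and strength go together on both arms, and peaks under 50 bp (30 on each arm) reach a strength of at most 4.22.

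Across peaks, width was related to strength by a Spearman's rho of 0.80 on the left arm (457 peaks), 0.79 on the right arm (290 peaks) and 0.79 on the arms of I to IV. Both values of a peak come from the same reads and the same threshold. The narrowest members were 2 bp wide on the left arm and 1 bp on the right, and none of the 30 peaks under 50 bp on either arm passed a strength of 4.22.

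Very strong peaks were few on both arms of V, at shares within the range of the arms of I to IV. For strengths above 50 that range ran from 0.76% on the left arm of I to 3.97% on the right arm of II. Strength passed 50 in 8 left-arm and 7 right-arm peaks, which is 1.75% (95% Clopper-Pearson interval 0.76 to 3.42) and 2.41% (0.98 to 4.91), against 2.38% on the arms of I to IV and 3.73% (2.69 to 5.03) in the centre of V. On the left arm 4 of the 8 lay within 1.5 Mb of the chromosome's first peak, 4 within 1.5 Mb of the centre, and none in the 2.89 Mb between, where the strongest of 190 peaks reached 45.1. On the right arm 6 of the 7 lay within 1.5 Mb of the last peak, 1 within 1.5 Mb of the centre, and none in the 1.37 Mb between, where the strongest of 92 peaks reached 29.5. The zone within 1.5 Mb of the last peak held 50.3% of all right-arm peaks. Of the 6 strong peaks there, those starting at 19522566, 19527525 and 19529004 lay close together, each 1.39 Mb from the last peak and so near the limit. The stretches between held 41.6% of all left-arm peaks and 31.7% of all right-arm peaks, and the 1.5 Mb limit was chosen after the positions had been seen, so the pattern is a description. A neighbour within 1 kb was found for 7 of the 8 on the left arm and 5 of the 7 on the right, against 41 of the 71 such peaks on the arms of I to IV (57.7%).

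The strongest member, on the left arm from 5843398 to 5846270, ranked 5 of all 9533 peaks, with a q-value of 1.52e-195 over 2873 bp. It lay 0.052 Mb from the centre boundary and was the only arm peak of V among the 10 strongest of the list. The next on this arm were the peak from 723864 to 728316 (strength 128.8), at 4453 bp also the widest of both arms, and the peak from 5271337 to 5273176 (120.9, 1840 bp wide). They were followed by those from 731292 to 731818 (113.9) and from 5049240 to 5049920 (81.2). The 3 widest left-arm peaks were thus also its 3 strongest.

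On the right arm the strongest peak, from 19529004 to 19529606 with a q-value of 1.27e-124, was 603 bp wide and ranked 42 of the list. Next were the peaks from 20773569 to 20774575 (strength 119, 1007 bp wide) and from 20707128 to 20708788 (117.2, 1661 bp wide, the widest of the arm). The other two were those from 20414083 to 20414627 (81.0) and from 17951108 to 17951774 (61.6). Of the other wide peaks, that from 16779788 to 16781147 spanned 1360 bp at a strength of 21.8, and that from 19520943 to 19522048 spanned 1106 bp at 32.7. In the whole list, the arms of V held 5 of the 50 strongest peaks (10%), 7 of the 100 strongest (7.0%), 22 of the 500 strongest (4.40%) and 54 of the 1000 strongest (5.40%), beside 7.84% of all peaks.

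**Figure D5:**
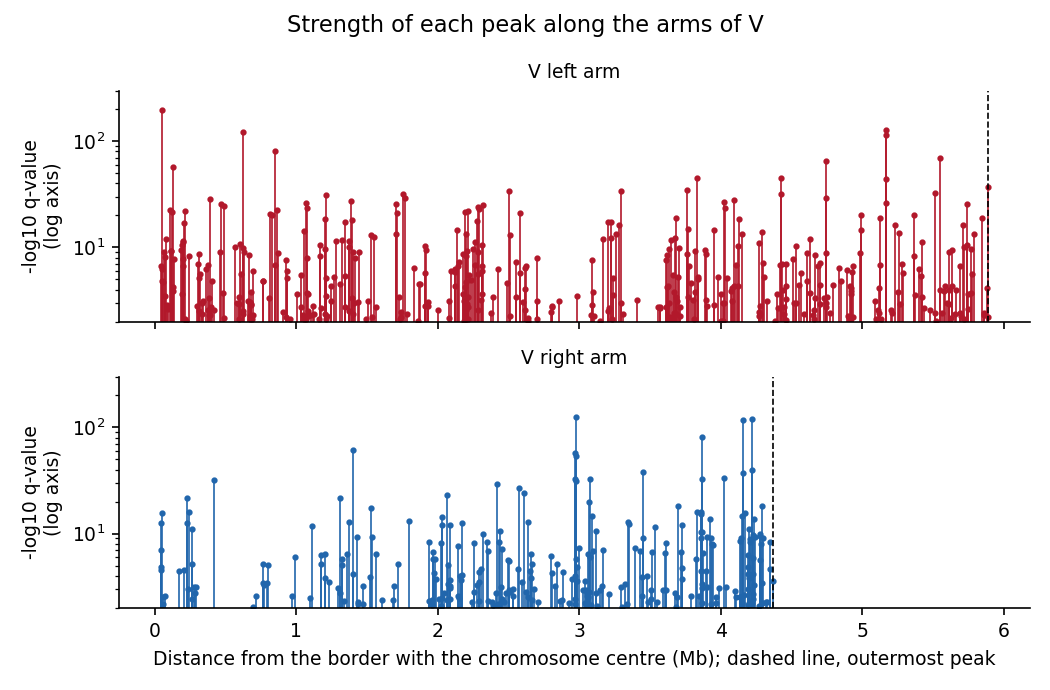
Strength of each peak (-log10 of the deposited q-value, log axis) against its distance in Mb from the border with the chromosome centre, for the left arm (top) and the right arm (bottom) of V; the dashed line marks the outermost peak. Peaks above 50 (8 and 7) lie within 1.5 Mb of a border of their arm, and the inner 2 Mb of the right arm show wide empty stretches.

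At the boundaries of the rule, the last member of the left arm, from 5851645 to 5852292, had a strength of 6.69, and the first peak outside, from 5917747 to 5918076, one of 16.2. The gap between them was 65454 bp. On the other side, the first member of the right arm, from 16592121 to 16592509, had a strength of 12.5, and the last peak outside, from 16537892 to 16538345, one of 20.1, with 53775 bp between them. No peak crossed a boundary.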

How the data were processed

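ChIP and input libraries (replicates 1 and 2 of each) stand behind 1 peak list. Per the file headers its build is WormBase WS180, and the file's source field names PeakSeq. Its name calls it combined, which was read as pooling the replicates. How they were pooled, the aligner, tool versions and filters on reads: not given in the sources used here. Per peak, the authors deposited a q-value (a p-value corrected for multiple tests) in 2 fields, equal in all 9533 peaks, at most 0.00991. Depth is unknown, since the list gives no read numbers.

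Width was last minus first base plus 1, and gaps are the bases between neighbours. The outer end of each arm was the first or last peak of the chromosome. Arms of I to IV used boundaries recalled from the published recombination map (I 3.86 and 11.0 Mb, II 4.88 and 12.0, III 3.72 and 10.3, IV 3.90 and 13.0), whose build was not checked against WS180. Stretches were placed by their midpoint. Density was compared by quasi-Poisson regression of midpoints per 100 kb window, laid outward from the border with the centre (Pearson dispersion, two-sided, Benjamini-Hochberg over 4 comparisons). The regression was tested on simulated data with windows drawn independently. That trial cannot show whether the intervals hold where neighbouring windows vary together. Windows of 1 chromosome are not replicates of a condition. Intervals are exact (Poisson, Clopper-Pearson, or order statistics for medians); single peaks are not independent.

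Members, comparisons and limits were chosen with earlier results of these data known. Named items followed a fixed rule: per arm the 5 strongest and 3 widest peaks, 3 longest stretches, 3 largest groups and the densest and sparsest window. Alternatives changed the window, arm borders, arm ends, strength threshold, joining distance, test and chromosomes compared. Tools were statsmodels 0.14.6, scipy 1.17.1, pandas 2.3.3, numpy 2.4.6 and matplotlib 3.10.9 under Python 3.11.15.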

Additional observations from a re-analysis of the deposited data

How the results depend on the processing

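The lower density of the arms of V against its centre passed the test under all 7 alternatives (ratios 0.63 to 0.78). Leaving out the inner 2 Mb was not run for this comparison. The lower density of the right arm against the arms of I to IV passed under 13 of 15 (ratios 0.61 to 0.74), each single autosome left out among them. It was 0.98 without the 2 Mb of the right arm next to the centre (adjusted p = 0.87, n = 320 windows) and 1.01 with those 2 Mb left out of every arm (adjusted p = 0.96), both chosen after seeing the data; since that stretch was picked for its low counts, these 2 p-values test nothing. That of the left arm kept its direction under all 14 alternatives but missed the threshold at 0.89 with the V boundaries moved inward by 500 kb, 0.84 without the outer 500 kb, 0.86 without chromosome III and 0.80 without the inner 2 Mb of every arm; the cause was not tested. The left to right ratio was 1.17 with an adjusted p = 0.038 by the exact binomial test, and was turned to 0.83 and 0.80 by the 2 inner-part alternatives. Shares with a near neighbour were 14.4% and 13.8% (left, right) at 500 bp, 49.2% and 43.4% at 2 kb, and 14.4% and 19.8% among peaks above the list's median strength. In that stricter set the median widths were 377 and 362 bp and the stretches over 50 kb numbered 36 and 29, against 5 and 6 stretches over 100 kb in the full list. With peaks within 1 kb merged, the left-arm median width was 289.5 bp; the right-arm width and both strengths stayed inside their intervals. No paired analysis was possible because nothing in the list is given for single libraries, and leaving out a replicate was not possible either.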
